A study of Homo sapiens with 6 samples.

Results

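The comparison set the parental prostate cancer line DU145 against the parental line C4-2B, gene by gene, in 1 RNA-seq library of each. A gene was measured when it reached 1 FPKM (fragments per kilobase of transcript, scaled to the number of mapped fragments) in either library, which held for 15876 of the 60658 genes listed. Each gene was described by the log2 ratio of (FPKM + 1) in DU145 to that in C4-2B, and was called higher or lower in DU145 when that ratio was at least 1 in size. With 1 library per line the parental ratio has no replicate error, so it carries no p-value. The pseudocount of 1 makes the ratio understate the difference of genes at low FPKM. Close to the threshold, HMGN3 (20.6 FPKM in C4-2B and 42.1 FPKM in DU145) lay just inside it and ZBED1 just outside it.

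The other 4 libraries came from taxane-resistant sublines and show whether a difference between the parents was also present in their descendants. TaxR and DTXR are C4-2B and DU145 sublines kept in 5 nM docetaxel, and CabR and CTXR were derived from them and kept in 5 nM cabazitaxel. Both parental lines and all 4 sublines grew in RPMI medium with fetal bovine serum, and polyadenylated RNA was sequenced with a strand-specific kit from cells that were untreated before harvest. Each line or subline was represented by 1 library, and the sublines of a lineage share their origin, so they are not independent replicates of it. TaxR is also marked "old" in its title, without further explanation. Where 3 levels are given for a lineage, they are in the order parent, docetaxel subline, cabazitaxel subline.

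C4-2B descends from LNCaP, an androgen-responsive line from a lymph node metastasis, after passage as a xenograft in castrated hosts, and it is used as a model of castration-resistant disease. DU145 was established from a brain metastasis of prostate cancer and is a standard androgen-insensitive model. In the prostate luminal cell, androgen together with transcription factors such as FOXA1 and HOXB13 switches on a secretory programme that includes prostate-specific antigen. Loss of that programme in prostate cancer cells can come with mesenchymal, inflammatory or neuroendocrine gene expression.

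Library totals ran from 711766 to 818430 FPKM and genes at 1 FPKM or more from 13418 to 14270. Mitochondrially encoded genes took 17.9% of the C4-2B total and 40.7% of the DU145 total, the lowest and highest share of the 6 libraries, so nuclear genes shared a smaller part of the total in DU145. Rescaling the libraries to the same nuclear total shifted the median ratio of all measured genes from -0.07 to 0.21. The labels were checked against markers. KLK3, KLK2 and HOXB13 were at 75.7 FPKM or more in each C4-2B lineage library, and each was at 0.301 FPKM or less in each DU145 lineage library. KRT8 and KRT18, the luminal epithelial keratins, were at 94.1 FPKM or more in all 6 libraries. Of 8 leukocyte markers only CD68, a lysosomal protein that is not restricted to leukocytes, passed 1 FPKM in a parental line (6.81 FPKM in C4-2B, 9.07 FPKM in DU145), and PTPRC was listed at 0 in all 6 libraries. The summed level of the leukocyte markers was 0.862 to 7.25 FPKM in the C4-2B lineage and 9.39 to 83.0 FPKM in the DU145 lineage, nearly all of it CD68. Of 6 endothelial markers only VWF (1.90 FPKM in C4-2B and 0.0597 FPKM in DU145) passed 1 FPKM, and of 10 fibroblast and smooth muscle markers COL1A1, ACTA2 and COL3A1 did.

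In bulk libraries such as these, fewer cells with a transcript and less of it per cell cannot be told apart. TaxR, labelled as a C4-2B subline, held low levels of transcripts that were high in DU145 and near 0 in C4-2B. S100A6 was at 8.06 FPKM in TaxR against 0 in C4-2B and 0.353 FPKM in CabR, UCHL1 at 7.19 FPKM against 0.490 and 1.71 FPKM, ANXA1 at 3.16 FPKM against 0 and 0.0893 FPKM, and AXL at 1.73 FPKM against 0.0533 and 0.120 FPKM. These levels were far below those of DU145, where S100A6 reached 762 FPKM and AXL 138 FPKM. The 10 markers fixed for the C4-2B side summed to 4292 FPKM in TaxR, between CabR (2348 FPKM) and C4-2B (5163 FPKM). KLK3 alone gave 3053 FPKM of the sum in TaxR, 841 FPKM in CabR and 3567 FPKM in C4-2B, so the sums say little about the other markers. The part of these transcripts in the results at the docetaxel stage was not tested, and counts of genes kept, reversed, closed, non-overlapping or called with limma are given with and without TaxR, while levels and promoter shares are given with it only.

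Between the parents, 3009 genes (19.0% of those measured) were higher in DU145 and 3395 (21.4%) were lower, together 40.3%. The counts for single gene lists below are to be read beside these shares. With the nuclear totals made equal, 3890 genes were higher and 2598 lower, so that the share of called genes that were higher was 60.0% in place of 47.0%. This scaling moves ratios upward, so higher genes can only stay higher, and 2598 of the 3395 lower genes stayed lower. Pearson's r of log2(FPKM + 1) across the measured genes was 0.738 between the parents, a value across genes, which are not independent replicates. By a log2 ratio of 5 or more, 75 genes were higher and 82 lower.

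**Figure D1:**
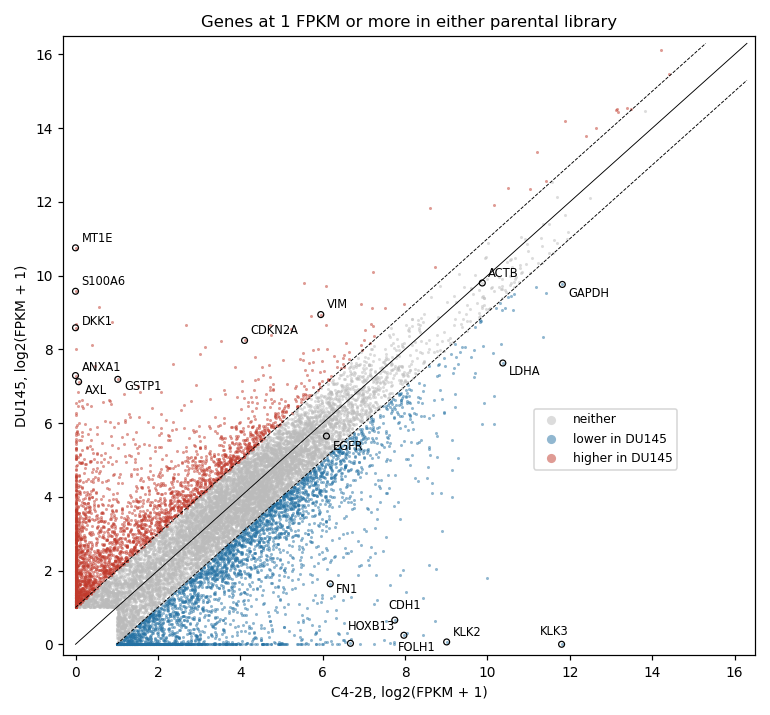
Level of each measured gene in C4-2B (horizontal axis) and in DU145 (vertical axis), both as log2(FPKM + 1), with genes higher, lower and neither in DU145 in separate colours and selected genes labelled. The points are measured genes with a symbol, chromosome Y and XIST left out, and the 2977 higher and 3369 lower ones lie on either side of the diagonal band, and KLK3, KLK2 and FOLH1 lie along the C4-2B axis while S100A6, DKK1 and MT1E lie along the DU145 axis.

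Androgen-induced genes differed almost entirely in one direction. Of 25 measured members of this list, 24 were lower in DU145 and none was higher; the exception was ZBTB10 (-0.12). Their median ratio was -3.77, against -0.07 for all measured genes, and 17 of the 24 passed the rule in both resistant pairs (17 of 24 also in the cabazitaxel pair alone, without TaxR).

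KLK3 (chromosome 19, 50854915 to 50860764, GRCh38, plus strand), which encodes prostate-specific antigen, was at 3567, 3053 and 841 FPKM in the C4-2B lineage. It was listed at 0 in DU145, where a 0 may also be a failed estimate, and at 0.148 FPKM in DTXR and 0.301 FPKM in CTXR. Its neighbour KLK2, a related secreted protease, was at 515, 368 and 936 FPKM in the C4-2B lineage and at 0.0450, 0.0811 and 0.0985 FPKM in the DU145 lineage. TMPRSS2, a membrane serine protease, had 344 FPKM in C4-2B and 0.197 FPKM in DU145. The order of the C4-2B lineage libraries differed between these genes: KLK3 was lowest in CabR and KLK2 was highest there.

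The bases just upstream of the RefSeq start of KLK3 and KLK2 are shown because these genes had the largest ratios among those lower in DU145, with AGAACA (1 arm of the hormone response element that steroid receptors bind, searched on both strands as AGAACA or its reverse complement) in capitals. The KLK3 stretch is chr19:50854665-50854914 and the KLK2 stretch chr19:50873189-50873438, both on the plus strand of GRCh38.p14, 250 bases each.
KLK3: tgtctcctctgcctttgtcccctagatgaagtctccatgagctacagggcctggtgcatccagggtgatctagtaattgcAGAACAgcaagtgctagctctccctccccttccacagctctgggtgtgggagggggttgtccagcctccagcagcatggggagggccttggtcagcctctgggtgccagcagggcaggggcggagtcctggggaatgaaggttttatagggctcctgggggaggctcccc
KLK2: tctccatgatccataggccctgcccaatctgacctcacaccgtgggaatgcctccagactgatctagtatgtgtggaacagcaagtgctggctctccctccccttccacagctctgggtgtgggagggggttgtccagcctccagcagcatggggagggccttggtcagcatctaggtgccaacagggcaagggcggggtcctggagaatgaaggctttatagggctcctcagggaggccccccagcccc
KLK3 held 1 match and KLK2 held none in this window. Only exact letters were counted: before the shared letters gcaagtgct, KLK2 reads GGAACA where KLK3 reads AGAACA. A match, or its absence, describes the letters only and does not show whether a receptor binds. AGAACA was present in 12.4% of all 27305 RefSeq promoters of this length and in 1 of the 17 promoters of androgen-induced genes in the table (5.88%). Among genes with a parental difference kept in both resistant pairs, 6.97% of the promoters of those higher in DU145 and 6.89% of those lower held it. Among measured genes that passed the size rule in neither direction 7.30% did, close to both kept groups.

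FKBP5, a co-chaperone of steroid receptors that glucocorticoids can also induce, was at 160, 144 and 61.3 FPKM in the C4-2B lineage and at 20.9, 28.9 and 24.9 FPKM in the DU145 lineage, with log2 ratios of -2.88, -2.28 and -1.26. The glucocorticoid receptor gene NR3C1 was higher in the DU145 lineage: it was at 0.0691, 0.222 and 0 FPKM in the C4-2B lineage and at 10.7, 9.79 and 9.61 FPKM in the DU145 lineage. The lineages did not overlap for either gene. Over all measured genes this held for 27.1% with the DU145 lineage above and for 30.3% with the C4-2B lineage above.

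Prostate transcription factors divided between the lines. Of 14 measured factors 10 were lower in DU145 and 4 were higher (KLF5, GATA3, NR3C1 and RUNX1), and ERG, ETV1, SOX2 and TP63 were under 1 FPKM in both parents. HOXB13, a homeobox factor of the prostate, was at 101, 87.3 and 75.7 FPKM in the C4-2B lineage and at 0.0183, 0.0166 and 0 FPKM in the DU145 lineage. SPDEF, an ETS factor of secretory epithelium, had 118 FPKM in C4-2B and was listed at 0 in DU145, and GRHL2, an activator of epithelial genes, had 43.5 FPKM and 0.0751 FPKM. FOXA1, a pioneer factor that opens chromatin for steroid receptors, was not absent from DU145: it had 145, 141 and 157 FPKM in the C4-2B lineage and 11.03, 21.2 and 35.7 FPKM in the DU145 lineage.

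Surface proteins used as drug or imaging targets in prostate cancer were mostly lower in DU145, 11 of 16 measured, with 2 higher. FOLH1, which encodes prostate-specific membrane antigen, was at 250, 246 and 222 FPKM in the C4-2B lineage and at 0.184, 0 and 0.116 FPKM in the DU145 lineage. STEAP1 was at 163 FPKM in C4-2B and remained at 18.5 FPKM in DU145 (log2 ratio -3.07). MET, the hepatocyte growth factor receptor, was the reverse, with 0.241 FPKM in C4-2B and 9.34 FPKM in DU145. Among 12 measured steroid-metabolising enzymes 4 were higher and 5 lower in DU145. UGT2B15 and UGT2B17, which inactivate androgens by glucuronidation, were at 4.18 and 2.74 FPKM in C4-2B and listed at 0 in all 3 DU145 lineage libraries; the 2 enzymes are near-identical in sequence, so their separate levels are uncertain.

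**Figure D2:**
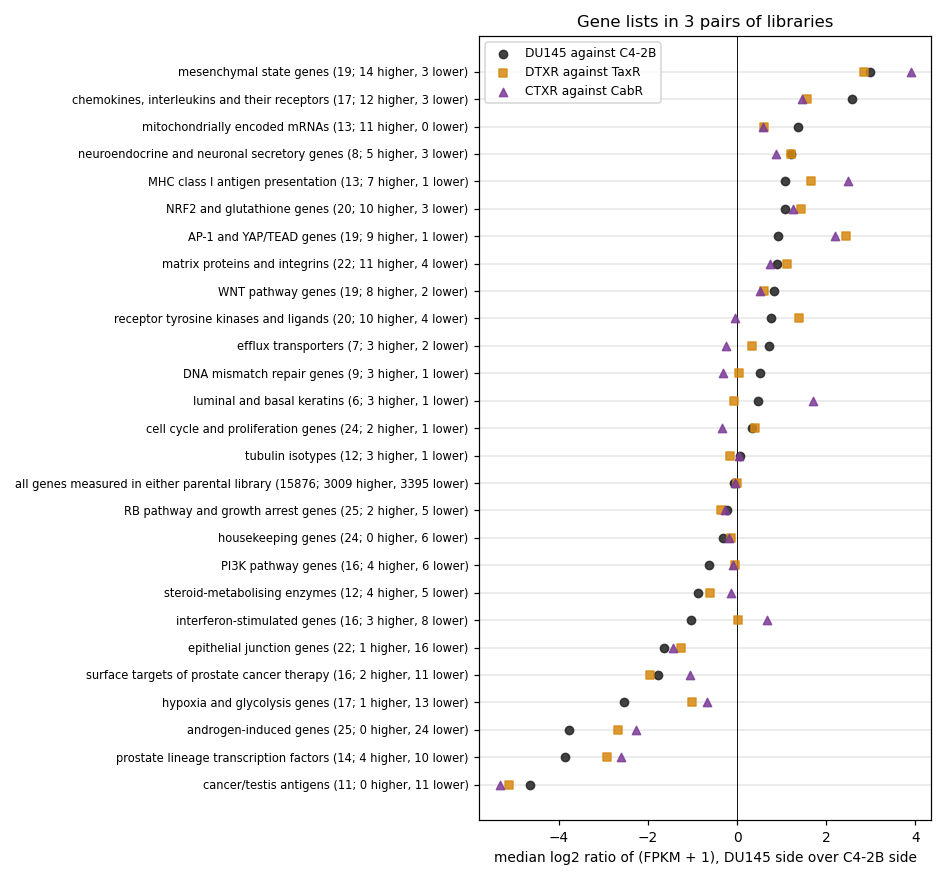
Median log2 ratio of (FPKM + 1) for each gene list, with the parental pair, the docetaxel-resistant pair and the cabazitaxel-resistant pair as separate symbols. Androgen-induced genes (-3.77 between the parents) and cancer/testis antigens (-4.63) lie at the C4-2B end, mesenchymal genes (2.99) at the DU145 end, and all genes near 0.

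Epithelial junction genes were lower in DU145 for 16 of 22 measured members and higher for 1, with a median ratio of -1.65. CDH1 (chromosome 16, 68737225 to 68835548, plus strand), which encodes E-cadherin, was at 214, 183 and 94.5 FPKM in the C4-2B lineage and at 0.576, 0.224 and 0.880 FPKM in the DU145 lineage, with log2 ratios of -7.09, -7.23 and -5.67. The tight junction genes CLDN7 (428 and 3.08 FPKM) and CLDN4 (235 and 2.67 FPKM) were also lower in parental DU145. In the resistant sublines CLDN7 was at 25.6 FPKM in DTXR and 35.5 FPKM in CTXR, nearer to C4-2B than in the parent. CLDN1 was the 1 member higher in DU145, with 31.8 FPKM there and a listed value of 0 in C4-2B. Lower but still above 1 FPKM in DU145 were ESRP1, a splicing factor of epithelial transcripts (37.1 and 1.81 FPKM), and EPCAM, an epithelial surface antigen (93.5 and 14.8 FPKM).

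CRB3, an apical polarity protein, is shown with its upstream sequence because the binding motif of the repressors ZEB1 and SNAI2 recurs in it. CRB3 was at 37.6, 28.0 and 42.5 FPKM in the C4-2B lineage and at 3.11, 12.0 and 11.4 FPKM in the DU145 lineage. The stretch is chr19:6464021-6464270, plus strand, GRCh38.p14, with CACCTG or its reverse complement CAGGTG in capitals.
CRB3: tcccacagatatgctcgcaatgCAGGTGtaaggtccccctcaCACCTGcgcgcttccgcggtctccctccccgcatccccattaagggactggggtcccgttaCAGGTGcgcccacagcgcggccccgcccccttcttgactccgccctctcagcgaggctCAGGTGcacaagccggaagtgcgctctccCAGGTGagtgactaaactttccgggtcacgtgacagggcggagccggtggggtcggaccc
The 250 bases held 5 matches. CACCTG or its reverse complement was present in 17.5% of all promoters, in 6 of 14 junction gene promoters in the table (42.9%), in 21.1% of promoters of genes kept lower in DU145 and in 16.0% of those kept higher. CRB3 had the most matches of the junction genes. Of the others with a match, TJP1 was lower in all 3 pairs, with log2 ratios of -1.15, -1.23 and -1.82. DSC2 and OCLN were not called lower, and DSG2 and DSP were lower between the parents only. The lower genes CLDN7, CLDN4 and CLDN3 held no match, so lower members were found both with and without the motif. A match describes the letters only and shows no binding.

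ZEB1, a repressor of epithelial genes, was at 0.0412, 0.172 and 0 FPKM in the C4-2B lineage and at 6.89, 6.52 and 8.06 FPKM in the DU145 lineage. The lineages did not overlap, which held in this direction for 27.1% of all measured genes. The related repressor SNAI2 was the other way round in all 3 pairs, with log2 ratios of -2.51, -1.24 and -1.02. It was at 4.89, 6.98 and 1.08 FPKM in the C4-2B lineage and at 0.0351, 2.39 and 0.0258 FPKM in the DU145 lineage. Its lineages overlapped, because DTXR was above CabR. Of 19 measured mesenchymal genes 14 were higher in DU145 and 3 lower, and CDH2, TWIST1 and ZEB2 were under 1 FPKM in both parents. VIM (chromosome 10, 17228259 to 17237593, plus strand), the intermediate filament protein vimentin, was at 61.0, 60.8 and 41.3 FPKM in the C4-2B lineage and at 491, 548 and 613 FPKM in the DU145 lineage. Its log2 ratio was 2.99, and it was expressed in all 6 libraries.

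The membrane-binding protein genes ANXA1 and ANXA2 and the calcium-binding S100A6 were among the 15 highest ratios. ANXA2 was at 0.847, 6.04 and 0.515 FPKM in the C4-2B lineage and at 427, 678 and 403 FPKM in the DU145 lineage. AXL, a receptor tyrosine kinase, was at 138, 101 and 63.1 FPKM in the DU145 lineage, and CAV1, the caveolar coat protein, was at 0.0341 FPKM in C4-2B and 87.8 FPKM in DU145. S100A4 was at 1.25 FPKM in C4-2B and 109 FPKM in DU145, but only at 2.61 FPKM in DTXR, so it did not pass the size rule at the docetaxel stage.

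Keratins did not follow a single direction. KRT8 was lower in DU145 (257 and 105 FPKM, log2 ratio -1.29), and after equalising the nuclear totals it no longer passed the size rule. KRT18 (215 and 179 FPKM) and KRT19 (78.4 and 60.8 FPKM) passed it in neither scaling. KRT7 was at 0.111 FPKM in C4-2B and 98.3 FPKM in DU145. The basal keratins KRT5 and KRT14 and the basal factor TP63 were under 1 FPKM in both parents.

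Matrix and adhesion genes were higher in DU145 for 11 of 22 measured members and lower for 4. ITGA3, a laminin-binding integrin chain, was at 3.20, 5.97 and 2.56 FPKM in the C4-2B lineage and at 113, 207 and 211 FPKM in the DU145 lineage. FN1, which encodes fibronectin and is often listed as a mesenchymal gene, was lower in DU145: 71.7, 662 and 854 FPKM in the C4-2B lineage against 2.12, 3.79 and 4.28 FPKM in the DU145 lineage. The FN1 ratio was -4.54 between the parents and -7.11 and -7.34 at the resistant stages, where the C4-2B sublines were higher than their parent.

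Growth factor receptors and ligands were higher in DU145 for 10 of 20 measured members and lower for 4. The EGF-family ligands AREG (0.0539 and 10.9 FPKM) and EREG (listed at 0 and 8.32 FPKM) were higher in DU145, and both were higher still in DTXR and CTXR, EREG at 37.4 and 75.0 FPKM. Their receptor EGFR did not separate the lineages: it was at 67.2, 26.6 and 49.7 FPKM in the C4-2B lineage and at 49.2, 75.4 and 18.1 FPKM in the DU145 lineage. Its log2 ratio was -0.44 between the parents, 1.47 at the docetaxel stage and -1.41 at the cabazitaxel stage. ERBB3, a receptor for neuregulins, was lower in DU145 (89.8 and 6.95 FPKM).

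Inflammatory mediators formed another DU145-high group, with 12 of 17 measured chemokines, interleukins and receptors higher and 3 lower, and a median ratio of 2.58. CXCL2, a neutrophil-attracting chemokine, was listed at 0 in C4-2B and CabR, was at 0.0657 FPKM in TaxR, and was at 37.3, 43.1 and 12.7 FPKM in the DU145 lineage. IL18, a cytokine released after inflammasome activation, was at 42.2 FPKM in DU145 and listed at 0 in C4-2B. OSMR, the oncostatin M receptor chain, was at 1.84 and 128 FPKM and LIF, a cytokine of the same family, at 1.06 and 22.2 FPKM. IL6R, the ligand-binding chain for interleukin 6, was lower in DU145 (30.3 and 4.01 FPKM). CXCL8 was at 10.3 FPKM in DU145 but at 1.15 FPKM in DTXR.

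Interferon-stimulated genes pointed the other way between the parents, with 3 of 16 measured members higher in DU145 and 8 lower. Over all measured genes the shares were 19.0% and 21.4%, so the higher count was near its share. None of the 8 lower members passed the size rule in both resistant pairs, and 1 of 8 did at the cabazitaxel stage, the pair without TaxR. ISG15, a ubiquitin-like modifier, was at 7.35, 16.1 and 56.4 FPKM in the DU145 lineage, against 66.5, 107 and 83.2 FPKM in the C4-2B lineage. IFITM3, which restricts virus entry, was at 1.15, 29.5 and 70.4 FPKM in the DU145 lineage and at 41.7, 71.0 and 53.4 FPKM in the C4-2B lineage, so its lineages overlapped. Genes of MHC class I presentation were higher in DU145 for 7 of 13 measured members and lower for 1. HLA-B was at 64.1, 41.5 and 17.3 FPKM in the C4-2B lineage and at 169, 236 and 224 FPKM in the DU145 lineage; reads of HLA genes may be divided between related loci and alleles.

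AP-1 and YAP/TEAD genes include the transcription factors that act downstream of growth factor and cell-shape signals and their common targets. Of 19 measured members 9 were higher in DU145 and 1 lower. FOSL1, an AP-1 subunit, was at 0.0599, 0.920 and 0.120 FPKM in the C4-2B lineage and at 95.8, 162 and 47.5 FPKM in the DU145 lineage. WWTR1, the co-activator TAZ, was at 0.502 and 25.2 FPKM and its DNA-binding partner TEAD1 at 5.17 and 89.7 FPKM in the parents, whereas YAP1 did not pass the size rule. The targets CCN1 (5.41 and 407 FPKM), ANKRD1 (0.123 and 49.3 FPKM) and CCN2 were all higher in DU145.

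CCN2 was at 0.172, 0.472 and 0.0816 FPKM in the C4-2B lineage and at 26.7, 54.7 and 14.7 FPKM in the DU145 lineage. Its upstream sequence (chr6:131951373-131951622, GRCh38.p14, printed on the minus strand) is shown because it holds the TEAD motif GGAATG, in capitals, 3 times on the printed strand; both strands were searched.
CCN2: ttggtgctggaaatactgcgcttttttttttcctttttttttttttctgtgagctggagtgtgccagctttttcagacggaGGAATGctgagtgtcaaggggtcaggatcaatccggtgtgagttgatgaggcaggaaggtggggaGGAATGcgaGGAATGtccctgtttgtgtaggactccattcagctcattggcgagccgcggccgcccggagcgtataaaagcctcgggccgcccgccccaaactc
GGAATG on either strand was present in 11.9% of all promoters and in 3 of the 14 promoters of this list in the table (21.4%). Among the kept genes, 9.95% of promoters of those higher in DU145 held it and 9.19% of those lower. For measured genes that passed the size rule in neither direction the share was 8.96%. TGANTCA, the AP-1 motif, was in 6.60% of all promoters, in 5.34% of promoters of kept higher genes, in 3.03% of kept lower genes and in 3.18% of measured genes that passed the size rule in neither direction.

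**Figure D3:**
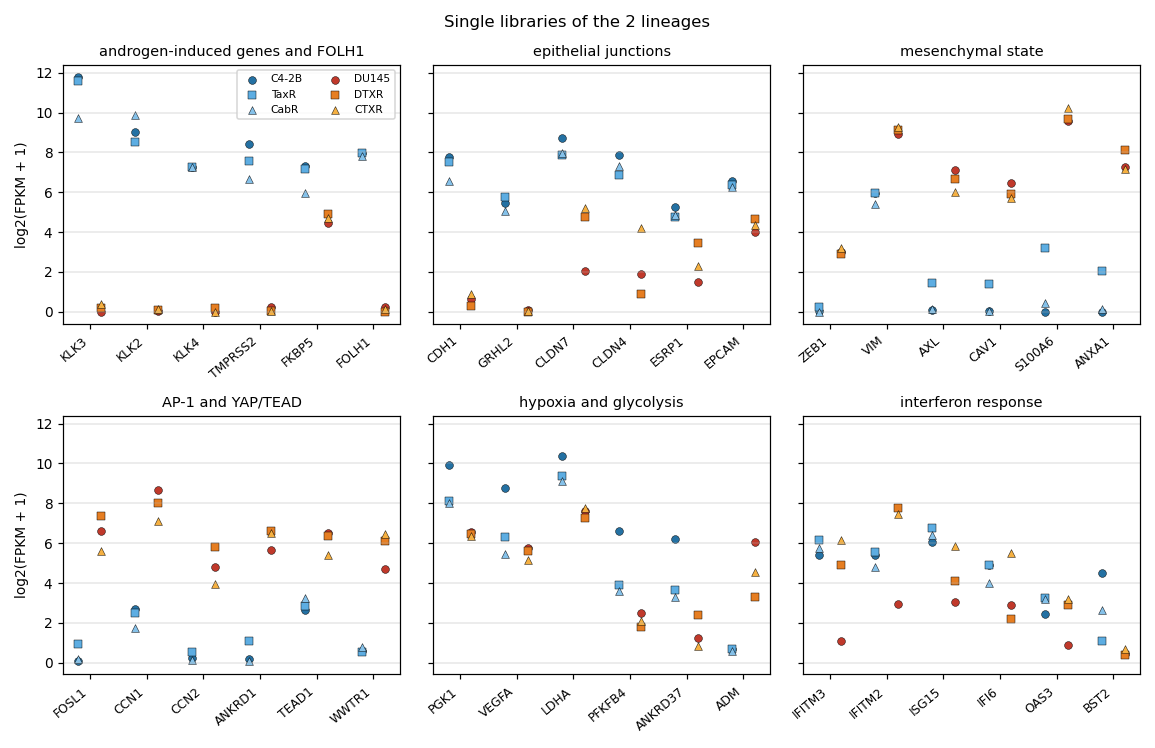
Level of named genes in 6 groups as log2(FPKM + 1) (vertical axis), 1 point per library, with the C4-2B lineage in blue and the DU145 lineage in red and orange. KLK3, FOLH1 and CDH1 are high in all 3 C4-2B lineage libraries and near 0 in the others, VIM is expressed in all 6, and IFITM3 overlaps between the lineages.

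NRF2 and glutathione genes, a mixed list of antioxidant and detoxification genes and regulators, were higher in DU145 for 10 of 20 measured members and lower for 3. GSTP1, a glutathione transferase, was at 1.04, 2.46 and 1.06 FPKM in the C4-2B lineage and at 145, 118 and 147 FPKM in the DU145 lineage. TXNRD1, thioredoxin reductase, was expressed in both parents, at 148 FPKM in C4-2B and 1091 FPKM in DU145. GPX1, which the annotation lists as a polymorphic pseudogene, was lower in DU145 (186 and 0.543 FPKM), but DTXR and CTXR held 64.3 and 71.9 FPKM. NFE2L2 and KEAP1, the factor and its inhibitor, passed the size rule in neither direction.

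Among RB pathway and growth arrest genes most did not pass the size rule: 2 of 25 measured members were higher in DU145 and 5 lower. Over all measured genes the shares were 19.0% and 21.4%, so the lower count was near its share and the higher count below it. The median ratio of the list was -0.22 and turned to 0.06 with equal nuclear totals. CDKN2A, which encodes p16 and p14ARF, was at 16.2, 12.5 and 6.55 FPKM in the C4-2B lineage and at 302, 396 and 520 FPKM in the DU145 lineage. RB1 was at 14.3, 17.5 and 15.4 FPKM and at 8.47, 9.49 and 8.06 FPKM, a log2 ratio of -0.69 between the parents that missed the size rule, although DU145 is widely described as lacking functional RB protein. GDF15, a stress-induced cytokine, was at 1016, 84.7 and 57.2 FPKM in the C4-2B lineage, and at 2.50, 0.754 and 0.995 FPKM in the DU145 lineage.

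Of 9 mismatch repair genes 3 were higher in DU145 and 1 lower. MSH6, a subunit of the mismatch recognition complex, was at 10.6 and 29.1 FPKM in the parents but at 28.4 FPKM in TaxR and 29.2 FPKM in DTXR, so it did not pass the rule there. Of 16 PI3K pathway genes 4 were higher and 6 lower. Over all measured genes 19.0% were higher and 21.4% lower, so the counts of these 2 short lists are descriptions only. AKT1 was lower in DU145 (110 and 37.6 FPKM, with 81.0 FPKM in CTXR).

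Hypoxia and glycolysis genes were lower in DU145 for 13 of 17 measured members and higher for 1, with a median ratio of -2.53. PGK1, a glycolytic kinase, was at 967, 273 and 260.4 FPKM in the C4-2B lineage and at 92.4, 87.8 and 81.9 FPKM in the DU145 lineage. VEGFA, the hypoxia-induced angiogenic factor, was at 431, 79.6 and 43.2 FPKM and at 52.2, 47.1 and 34.4 FPKM. For both genes parental C4-2B stood above its own sublines, and the median ratio of the list was -1.02 and -0.67 at the resistant stages. ADM, another hypoxia-induced gene, was the 1 higher member (0.640 and 65.3 FPKM). GAPDH and PGK1, often used as reference genes, were lower in DU145: GAPDH had 3611 FPKM in C4-2B and 867 FPKM in DU145. Of 24 reference genes 6 were lower and 0 higher, beside 21.4% and 19.0% of all measured genes, so the lower count was near that share. With equal nuclear totals the median of the reference genes moved from -0.31 to -0.02. ACTB differed little, at 938 and 891 FPKM, a log2 ratio of -0.07 that became 0.22 with equal nuclear totals.

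The mitochondrially encoded mRNAs, which code for respiratory chain subunits, were higher in DU145 for 11 of 13 members, with a median ratio of 1.37. MT-ND1, a complex I subunit, was at 3755, 9050 and 10015 FPKM in the C4-2B lineage and at 18605, 19033 and 18473 FPKM in the DU145 lineage. Parental C4-2B stood below its sublines, and none of the 13 passed the size rule in both resistant pairs, nor in the cabazitaxel pair alone.

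Cancer/testis antigens, which are normally silent outside the germ line, were lower in DU145 for all 11 measured members, with a median ratio of -4.63. MAGEA3 was at 67.8, 99.3 and 105 FPKM in the C4-2B lineage and at 0.0365, 0.0329 and 0 FPKM in the DU145 lineage, and MAGEA6 was at 46.2 FPKM in C4-2B and listed at 0 in all 3 DU145 lineage libraries. PRAME was still expressed in DU145 (66.7 and 19.4 FPKM). MAGEA genes are near-identical copies, so the level of a single member is uncertain. Of 8 measured neuroendocrine genes 5 were higher and 3 lower in DU145, and CHGA, CHGB, INSM1 and NEUROD1 were under 1 FPKM in both parents. UCHL1, a neuronal ubiquitin hydrolase, was at 0.490 FPKM in C4-2B and 570.3 FPKM in DU145, while DDC, the decarboxylase of catecholamine and serotonin synthesis, was at 59.4 and 0.305 FPKM.

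Of 12 tubulin genes, the subunits of the microtubules that taxanes bind, 3 were higher in DU145 and 1 lower, which is near the shares of 19.0% and 21.4% over all measured genes or below them. TUBB6 was at 14.1, 11.1 and 6.79 FPKM in the C4-2B lineage and at 103, 90.2 and 69.8 FPKM in the DU145 lineage, and TUBA4A was at 92.8 and 5.12 FPKM in the parents. TUBB and TUBB3 passed the size rule in neither direction. Of 7 measured efflux transporters 3 were higher and 2 lower in DU145, led by ABCC3 (0.0879 and 45.9 FPKM). Of 24 cell cycle genes 2 were higher and 1 lower, with MKI67 at 19.3 and 40.8 FPKM and CDK1 at 281 and 118 FPKM. Among 19 measured WNT genes 8 were higher and 2 lower. DKK1, a secreted WNT antagonist, had 383 FPKM in DU145 and a listed value of 0 in C4-2B.

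The resistant sublines showed which parental differences were also found in descendants. The 3 ratios, DU145 to C4-2B, DTXR to TaxR and CTXR to CabR, share no library. Of the 3009 genes higher in DU145, 1584 (52.6%) passed the same rule in both resistant pairs, which is 9.98% of all measured genes. Of the 3395 lower genes 1554 (45.8%) did, or 9.79% of all measured. Of the 9472 genes that passed the rule in neither direction between the parents, 394 (4.16%) were higher and 348 (3.67%) lower in both resistant pairs, and 926 (9.78%) and 982 (10.4%) in the cabazitaxel pair. Over all measured genes, 27.1% had all 3 DU145 lineage libraries above all 3 C4-2B lineage libraries and 30.3% the reverse, and 83.3% of the higher and 79.9% of the lower genes were among them, which the parental rule itself favours. Without TaxR these 4 shares were 28.6%, 32.7%, 85.5% and 82.9%. Without the docetaxel stage, and so without TaxR, 1921 higher and 1869 lower genes passed the rule the same way at the cabazitaxel stage.

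The share kept was lowest for genes with a parental ratio of 1 to 2. A gene just past the size rule misses the same rule more easily in another pair, so this gradient was partly set by the rule. Of genes higher in DU145 by a log2 ratio of 1 to 2, 39.0% were kept, and by 2 to 3, 74.0%. The share was 90.4% for a ratio of 3 to 5 and 88.0% for 5 or more. For lower genes the shares were 32.7%, 67.5%, 83.9% and 91.5%. In the cabazitaxel pair alone, without TaxR, they were 52.5%, 82.2%, 94.5% and 93.3% for higher genes and 43.8%, 74.7%, 86.9% and 92.7% for lower genes. In numbers, 791 of 2028 higher genes were kept in the smallest class and 66 of 75 in the largest. The number of genes past the rule was of similar size in each pair: 21.2% of genes were higher and 19.7% lower at the docetaxel stage, 40.8% together, and 22.0% and 19.4% at the cabazitaxel stage, 41.4% together.

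**Figure D4:**
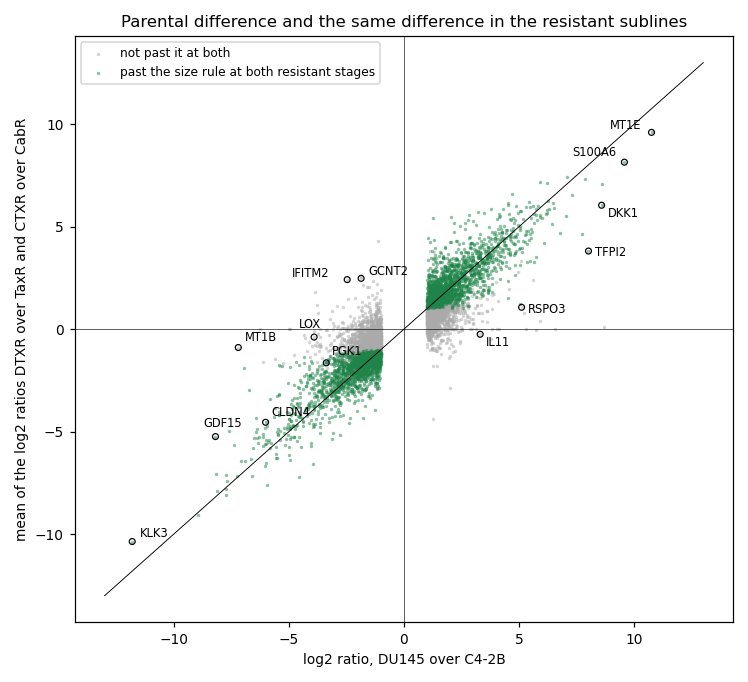
For the genes called between the parents, the parental log2 ratio of (FPKM + 1) (horizontal axis) against the mean of the DTXR to TaxR and CTXR to CabR log2 ratios (vertical axis), with genes past the size rule in both resistant pairs in green and the diagonal of equal ratios. KLK3, S100A6 and MT1E lie near the diagonal, LOX, IL11 and MT1B lie near 0 on the vertical axis, and IFITM2 and GCNT2 lie on the opposite side of 0.

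The lineage difference was also tested with limma in the 4 resistant libraries alone, TaxR and CabR against DTXR and CTXR, which take no part in the parental ratio. At a Benjamini-Hochberg adjusted p under 0.05, 2592 of 17436 genes (14.9%) were higher in the DU145 sublines and 2692 (15.4%) lower. With stage as a block, 1661 were higher and 1602 lower, and the values of single genes given here are from the fit without the block. The p-values measure the spread between sublines that share an origin, not between independent lines. No gene passed when TaxR or CabR was left out, with 4452 and 4588 genes at an unadjusted p under 0.05, so every call in this test rests on having both C4-2B sublines. Of the 3009 genes higher between the parents, 1674 (55.6%) were called the same way in this test and 4 the opposite way, against 14.7% called higher among all parental-measured genes. Of the 3395 lower genes, 1794 (52.8%) were called the same way and 9 the opposite way, against 16.2%.

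Individual genes in the limma test followed the levels above. CDH1 differed by -6.45 ± 0.44 (SE, log2) between the resistant sublines of the lineages, with an adjusted p of 0.00704. VIM differed by 3.51 ± 0.24 (adjusted p 0.00704), NR3C1 by 3.27 ± 0.23 (0.00711) and ZEB1 by 2.93 ± 0.23 (0.00794). RB1 differed by -0.84 ± 0.20 (0.0463). FKBP5 (-1.77 ± 0.46, adjusted p 0.0573), CLDN4 (-4.54 ± 1.21, 0.0606), SNAI2 (adjusted p 0.399) and EGFR (0.988) did not pass. By list, 16 of the 25 androgen-induced genes were called lower and 1 higher, and 13 of 19 mesenchymal genes were called higher and 0 lower. Of the 19 AP-1 and YAP/TEAD genes 13 were called higher, and of the 13 mitochondrially encoded mRNAs, 11 of them higher between the parents, 0 were called.

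A small set of genes was on in 1 lineage and off in the other, taken as under 0.1 FPKM in all 3 libraries of a lineage and at least 10 FPKM in all 3 of the other. There were 45 such genes for C4-2B (0.283% of those measured), among them KLK2, EHF, EPHA3, HOXB13, MAGEA3 and NETO1. NETO1, an auxiliary subunit of glutamate receptors, was at 56.1, 55.9 and 51.7 FPKM in the C4-2B lineage and listed at 0 in all 3 DU145 lineage libraries. There were 6 for DU145 (0.0378%), including CXCL2, RGS20, LBX2 and CGAS; without TaxR there were 53. CGAS, the cytosolic DNA sensor, was at 11.4, 12.1 and 14.7 FPKM in the DU145 lineage and at 0, 0.0761 and 0 FPKM in the C4-2B lineage. RGS20, a regulator of G-protein signalling, was at 29.6, 24.4 and 22.5 FPKM in the DU145 lineage.

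Other parental differences had closed in the resistant pairs. Of the 3009 higher genes 237 (7.88%) were within 0.5 of equal on the log2 scale at both resistant stages, and of the 3395 lower genes 305 (8.98%). At the cabazitaxel stage alone, without TaxR, 540 (17.9%) and 715 (21.1%) were. In the lower set the C4-2B lineage had moved further from its parent than the DU145 lineage for 247 of 305 genes (81.0%), and in the higher set for 58 of 237 (24.5%). Without TaxR these were 448 of 715 (62.7%) and 144 of 540 (26.7%). Choosing genes by the parental ratio favours later movement back from it in either lineage. How far this divides unequally between the lineages was not tested. The splits may thus be partly set by the choice and do not show which lineage changed. LOX, a collagen cross-linking enzyme, was at 27.5 FPKM in C4-2B and at 2.24 and 1.10 FPKM in TaxR and CabR, against 0.909, 1.43 and 0.643 FPKM in the DU145 lineage. BHLHE40, a hypoxia-responsive repressor, and INSIG2, a regulator of sterol synthesis, were also higher in C4-2B than in the other 5 libraries, INSIG2 with 58.0, 9.71 and 12.2 FPKM in the C4-2B lineage. IL11, a cytokine of the interleukin 6 family, was at 14.3 FPKM in DU145 and at 1.98 and 1.62 FPKM in its sublines, with 0.545 FPKM in C4-2B.

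Positions along the genome were described on the deposited scale over 12739 measured protein-coding genes, of which 2245 were higher and 2577 lower in DU145. On chromosome X 34.2% of 442 genes were lower in DU145 and 12.0% higher, on chromosome 16 31.2% and 8.09%, and on chromosome 22 28.7% and 8.58%. On chromosome 18 more genes were higher (28.8%) than lower (19.8%). Runs of at least 4 adjacent measured genes in the same direction numbered 46 higher and 80 lower between the parents, and 12 and 13 when all 3 pairs had to pass the rule. Without TaxR, with the parental and cabazitaxel pairs, they numbered 21 and 20. The runs named here were picked after their values were seen. On chromosome 14, 15 adjacent genes from VCPKMT to NID2 (50108632 to 52069228) were higher in DU145, and the last 8, from SAV1 on, passed in all 3 pairs. On chromosome X, 13 adjacent genes around the MAGEA cluster (151563622 to 152830777) were lower.

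KLK15, KLK3, KLK2 and KLK4 on chromosome 19 (50825289 to 50910738) were lower in DU145 in all 3 pairs. On chromosome 14, MBIP, SFTA3, NKX2-1 and NKX2-8 (36298558 to 36582607) were higher. NKX2-1, a homeobox factor of lung and thyroid, was at 49.9, 35.3 and 97.0 FPKM in the DU145 lineage and at 0, 0.497 and 0 FPKM in the C4-2B lineage. SFTA3, its neighbour, was at 27.8, 10.4 and 34.8 FPKM in the DU145 lineage and at 0.302 FPKM or less in the C4-2B lineage.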

How the data were processed

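The authors deposited a table of FPKM per gene for each of 6 libraries. Per the submitters' processing notes, HISAT, StringTie and Cuffnorm were used with GRCh38; versions, annotation release and the strand setting of the counting are not stated there. FPKM holds no read counts, so the depth behind each value is unknown and no counting error can be given, and an exact 0 may be a failed estimate. Groups came from the sample titles. Symbols matched 56550 of 60658 identifiers. Computed here were log2(FPKM + 1) ratios for genes at 1 FPKM or more in either library, called at 1 in size. Lineages were compared in the 4 resistant libraries with limma 3.58.1 in R 4.3.3 (intensity trend, moderated, two-sided, Benjamini-Hochberg over 17436 genes at 1 FPKM in any library). Tested on simulated data for that comparison over 17436 genes, it recovered 0 of 67 genes changed by a log2 of 1, 11 of 67 at 2 and 34 of 66 at 4, with 1 false call. Only these genes were changed in the simulation, far fewer than were called in the data. Its adjusted p threshold was therefore harder to pass, and its recovery does not describe the share of real differences found. Named genes were the 15 highest and 15 lowest protein-coding genes, up to 6 per list by size of ratio, up to 10 exclusive genes per direction, up to 6 reversed and up to 8 later equal genes per direction, and EGFR, RB1, CDH1, VIM, GAPDH and ACTB whatever their values, with some items not reported here; other members of a list are named where they are an exception, a partner or a reference to one of these, and were chosen after their values were seen. The members and lists were chosen with earlier results of these data known, so list counts are descriptions. Promoters are the 250 bases before each RefSeq start (GRCh38.p14). Alternatives were other pseudocounts, filters, scalings and left-out libraries. Genes on chromosome Y and XIST are not named or plotted but stay in counts over all genes. Values without TaxR for genes kept by size class, closed, reversed or non-overlapping, for lists and for runs were an alternative chosen after seeing the data.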

Additional observations from a re-analysis of the deposited data

Results flagged for a closer look

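The 6 genes that follow were called in one direction between the parents and in the opposite direction in both resistant pairs; whether the pairs differ was not tested. IFITM2, an interferon-induced restriction factor, had a parental log2 ratio of -2.46 and ratios of 2.20 and 2.64 in the docetaxel and cabazitaxel pairs, with 6.61, 215 and 173 FPKM in the DU145 lineage against 27.0 to 46.2 FPKM in the C4-2B lineage. GCNT2, a glycosyltransferase, had -1.86, then 1.98 and 2.98, and was listed at 0 in DU145. MYO1E, a membrane-associated myosin, had -1.53, then 2.06 and 2.10. SEMA4B had -1.36, then 1.67 and 2.98. For ADGRG6 the ratio was -1.21, then 1.20 and 1.35, with 245 FPKM in C4-2B and 54.4 and 52.7 FPKM in its sublines. ANG, which encodes angiogenin, had -1.18, then 1.26 and 1.08. With equal nuclear totals the parental ratios of ADGRG6 and ANG were -0.91 and -0.93, below the size rule. Over all genes 12 of the 3395 lower genes and 1 of the 3009 higher genes reversed in this way, and 67 and 29 did in the cabazitaxel pair alone, without TaxR.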

How the results depend on the processing

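The parental counts changed most with a pseudocount of 5, which left 1297 genes higher and 1762 lower, and with a minimum of 5 FPKM, which left 1863 higher; the larger pseudocount shrinks ratios of low genes and the filter tests fewer genes. Equal nuclear totals gave 3890 higher and 2598 lower. With stage as a block the limma test called 1661 genes higher and 1602 lower, where the lineages were compared within the docetaxel and cabazitaxel stages. Leaving out each resistant library in turn, the calls ran from 0 to 2824 higher and from 0 to 1993 lower; both ends at 0 were without TaxR and without CabR, where 1 C4-2B subline was left and was taken to vary like the other lineage. Genes on in 1 lineage and off in the other numbered 180 for DU145 and 146 for C4-2B with limits of 0.5 and 5 FPKM, and 53 for DU145 without TaxR. Counts of kept genes stayed within 1.5 times under the 4 alternatives tried. The direction of a called ratio could not serve as a check here. A pseudocount cannot change the sign of a ratio, and the rescalings moved ratios by less than the size rule. No paired analysis was possible because the labels carry no replicate numbers, so the block used here is the drug stage, which the lineages share. Depth could not be read from FPKM.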

Other observations

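Metallothioneins, small zinc- and copper-binding proteins, separated the lines by isoform. MT1E was listed at 0 in C4-2B and was at 1726 FPKM in DU145, with 1407 FPKM in DTXR and 1718 FPKM in CTXR. MT1B was at 347 FPKM in C4-2B, listed at 0 in TaxR and at 2.46 FPKM in CabR, and was at 1.38 FPKM in DU145. MT2A and MT1X were close to equal between the parents, MT2A at 5793 and 4383 FPKM and MT1X at 2881 and 2715 FPKM. In the sublines they were not: MT2A was at 109 and 338 FPKM in TaxR and CabR and at 3406 and 4175 FPKM in DTXR and CTXR. These genes are close paralogs, so the division of reads between them is uncertain, and MT2A and MT1X were chosen after their values were seen.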
